A study of Rattus norvegicus with 15 samples.

Results

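The livers described here are those of the chow-fed control rats of a study of a herbal decoction in rats with raised blood lipids. They were chosen by title: the libraries named CON 1 to CON 5, which are 5 of the 15 liver RNA-seq libraries of the series. CON rats were male Sprague-Dawley rats that ate standard chow during 1 week of acclimatization and normal chow from then on, with food and water freely available. The labels name no drug, decoction or saline for them. The other 10 libraries, from rats on a lipid-raising feed with or without the decoction, were not used, and no value below is set against them. The labels give 10 rats in the CON group and do not say which rats the 5 libraries came from or whether any were pooled, so the spread between libraries may hold technical as well as animal-to-animal variation. The age of the rats, their fasting state and the time of day at collection are not given in the sources.

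The hepatocyte, the main cell of the liver, makes most proteins of the blood plasma, clears foreign compounds with cytochrome P450 and conjugating enzymes, and makes and breaks down glucose, fat, cholesterol and bile acids. Many of its transcripts are known to follow the last meal, through insulin, glucagon and fatty acid sensing, and the time of day, through the circadian clock. Immediate early genes are transcription factors and other regulators that cells switch on within minutes of a stimulus, and in liver they are known to respond to handling, feeding and injury.

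Total read counts lay between 12972523 and 14228052 per library, and 14720 to 15097 of the 21576 genes in the deposited table had a count above 0. Levels are given on 2 scales. Those compared between genes are TPM, the deposited FPKM rescaled to 1 total in every library, which allows for gene length. Values of 1 gene compared between libraries are CPM, the count scaled to the library size, which was adjusted with TMM factors, which lay between 0.969 and 1.05. The range of a gene is its highest CPM divided by its lowest over the 5 libraries, with any count under 3 set to 3, which corresponds to 0.211 to 0.235 CPM and covers counting error alone. Hepatocyte markers were abundant in all 5 libraries: the 16 hepatocyte markers examined summed to between 158182 and 192235 TPM. None of them had a range of 4-fold, against 3.18% of all genes with a mean count of at least 50. Their median range was 1.55-fold, against 1.50-fold over all those genes. The 20 markers of T, B and NK cells summed to between 21.1 and 50.02 TPM, and 2 of them reached a mean count of 50. None of 13 neutrophil and mast cell markers reached that mean count, and the neutrophil granule genes Mpo, Elane and Camp had 0 counts in every library.

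The libraries did not stand at equal distances from each other. Over the 9813 genes with a mean count of at least 50, Pearson's r of log2 CPM was 0.974 to 0.979 among CON 2, CON 3 and CON 5 and 0.966 between CON 1 and CON 4. It was 0.929 to 0.960 between those 2 sets, lowest between CON 1 and CON 3. These correlations are across genes, which share depth and are not independent. CON 1 was the highest library for 27.1% of the genes and the lowest for 28.5%, where each other library was highest for 16.2% to 20.5% and lowest for 16.1% to 20.8%. Gene length moved with the same division: the shortest twentieth of genes, with a median length of 616 bases, had a median log2 deviation of -0.16 in CON 1 and -0.15 in CON 4, and of 0.06 to 0.15 in the other libraries. Removing the trend with length in each library left the number of variable genes in every list below as it was.

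A small set of plasma protein transcripts dominated these livers. The 10 genes with the most reads held 22.6% ± 1.02 of all counts (SD, n = 5), the top 100 held 48.1% ± 1.07 and the top 1000 held 74.5% ± 0.755. Between 110 and 142 genes were enough to hold 50% of the counts of a library. Per length, the 20 genes of highest mean TPM held 33.1% ± 1.10 of the transcriptome. Between 116 and 123 genes exceeded 1000 TPM, 6351 to 6714 exceeded 10 TPM and 11263 to 11560 exceeded 1 TPM. No count was seen in any of the 5 libraries for 5135 genes.

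Alb, serum albumin, stood first in every library, at 86563 ± 7244 TPM and 8.57% ± 0.628 of the counts. Its values from CON 1 to CON 5 were 89564, 73927, 91266, 90893 and 87168 TPM, so that CON 2 lay below the other libraries. Second came LOC259246, an alpha-2u globulin, one of the small lipocalins that male rats make in the liver and excrete in urine, at 45170 ± 9218 TPM. It was lowest in CON 1 at 34332 TPM and highest in CON 2 at 54412 TPM. The alpha-2u globulin genes are near-identical copies, so how their reads were assigned is uncertain. Apoe, the apolipoprotein by which lipoprotein remnants are taken up, followed at 25941 ± 2158 TPM, and Tf, the iron carrier transferrin, at 22768 ± 2585 TPM.

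Carriers of small ligands filled many of the next places. Gc, the vitamin D binding protein, had 15911 ± 799 TPM, Ttr, the thyroid hormone and retinol transporter, 13822 ± 2599.9 TPM, and Rbp4, the retinol carrier, 7739 ± 1675 TPM. Ahsg, or fetuin-A, stood at 12858 ± 2802 TPM, and Ambp, the precursor of alpha-1-microglobulin and bikunin, at 6038 ± 301 TPM. Apoc3 and Apoc1, small apolipoproteins of triglyceride-rich particles, had 9934 ± 1336 and 6560 ± 807 TPM. Sepp1, the selenium transporter selenoprotein P, reached 8611 ± 850.2 TPM.

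Acute phase proteins and protease inhibitors made up most of the remainder. Serpina1, alpha-1-antitrypsin, had 12389 ± 2437 TPM, and Crp, C-reactive protein, had 11227 ± 1659 TPM. Hp, haptoglobin, which binds free haemoglobin, stood at 11121 ± 4024 TPM, with 8391, 18222, 9970, 9080 and 9943 TPM in CON 1 to CON 5. Its level in CON 2 was thus far above the other libraries, which lay close together. LOC299282, a serine protease inhibitor, ran from 2471 TPM in CON 1 through 4999, 5932 and 7220 TPM to 8311 TPM in CON 5 and had the widest range of the 20, 3.35-fold, or 1.53-fold without CON 1. The exception to secreted proteins among the 20 was Cyp2e1, the ethanol-oxidising P450 of the pericentral zone, at 8357 ± 1843 TPM. Long transcripts rank higher by reads than per length: C3, complement component 3, held 1.27% of counts and LOC297568, an alpha-1-inhibitor, 1.11%, and both were among the 10 genes with the most reads but not among the 20 of highest TPM. Some textbook liver genes stood lower: Fabp1, the liver fatty acid binding protein, had 3097 ± 559 TPM, rank 40, and Apoa1, the main protein of high-density lipoprotein, had 452 ± 162 TPM, rank 278.

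**Figure D1:**
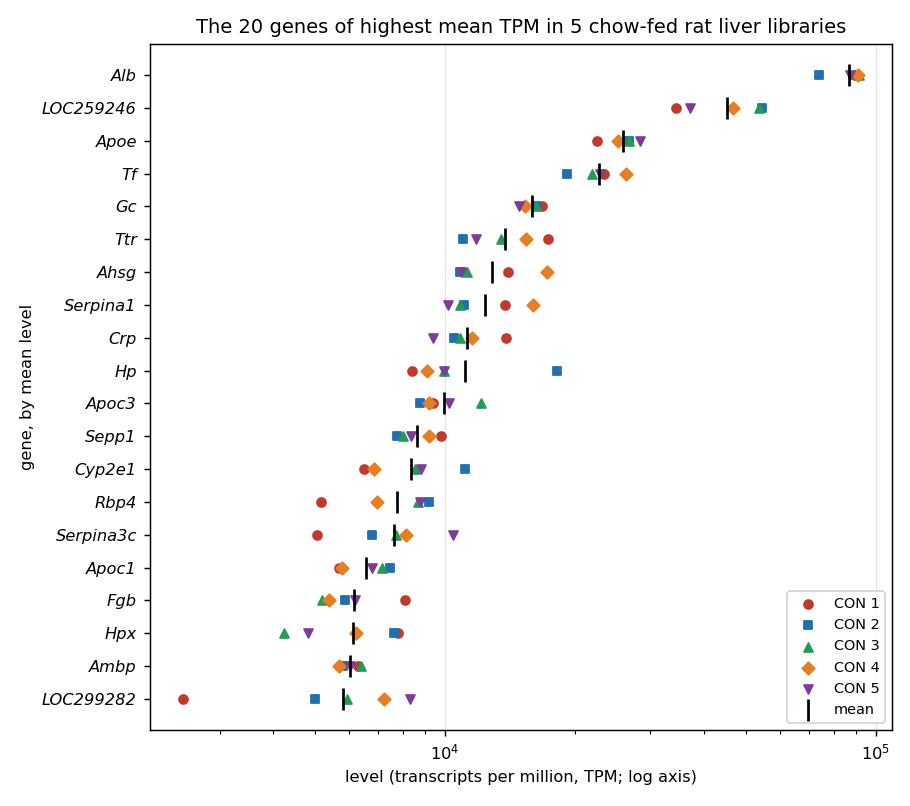
Level in TPM (log axis) of the 20 genes of highest mean TPM, with 1 symbol for each of the 5 CON libraries and a bar at the mean. Alb is first in every library, and the widest spreads are those of LOC299282, lowest in CON 1, and Hp, highest in CON 2.

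Grouped by family, 23 families with 587 genes held 43.1% ± 0.764 of TPM. The albumin family (Alb, Gc, Afm and Afp) held 10.3% ± 0.736, the apolipoproteins 5.89% ± 0.413, and the alpha-2u globulins with Obp3 4.55% ± 0.946, of which LOC259246 alone made up 99.3%. Apoe made up 44.0% of the apolipoprotein share. The 80 cytochromes P450, 57 of them above 1 TPM, held 3.98% ± 0.416, led by Cyp2e1 and by the male-predominant Cyp3a2 at 3768 ± 847 TPM and Cyp2c13 at 3104 ± 590 TPM. Serpins held 3.27% ± 0.306, coagulation factors 2.13% ± 0.268, complement genes 1.60% ± 0.291 and the 3 fibrinogen chains 1.37% ± 0.251. No mitochondrially coded gene was listed, so a share of that kind is not given.

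Housekeeping machinery took small shares of different steadiness. The 97 cytosolic ribosomal protein genes held 2.26%, 2.79%, 2.64%, 1.99% and 3.13% of TPM in CON 1 to CON 5, lowest in CON 1 and CON 4, the libraries in which short genes were also low. The 40 proteasome subunit genes held 0.231% ± 0.00363 and the 4 inter-alpha-trypsin inhibitor genes 1.25% ± 0.0335, the smallest relative spreads of the families, with CVs of 1.57% and 2.67%. The 5 urea cycle enzymes, which turn ammonia into urea, held 0.750% ± 0.0626, led by Ass1 at 3338 ± 655 TPM. Metallothioneins, small zinc and copper binding proteins, held 0.121%, 0.254%, 0.0538%, 0.105% and 0.123% in CON 1 to CON 5, a 4.72-fold range with CON 2 at the top. Haemoglobin genes, a trace of red blood cell RNA, ranged 5.70-fold, from 0.0242% in CON 3 to 0.138% in CON 4.

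**Figure D2:**
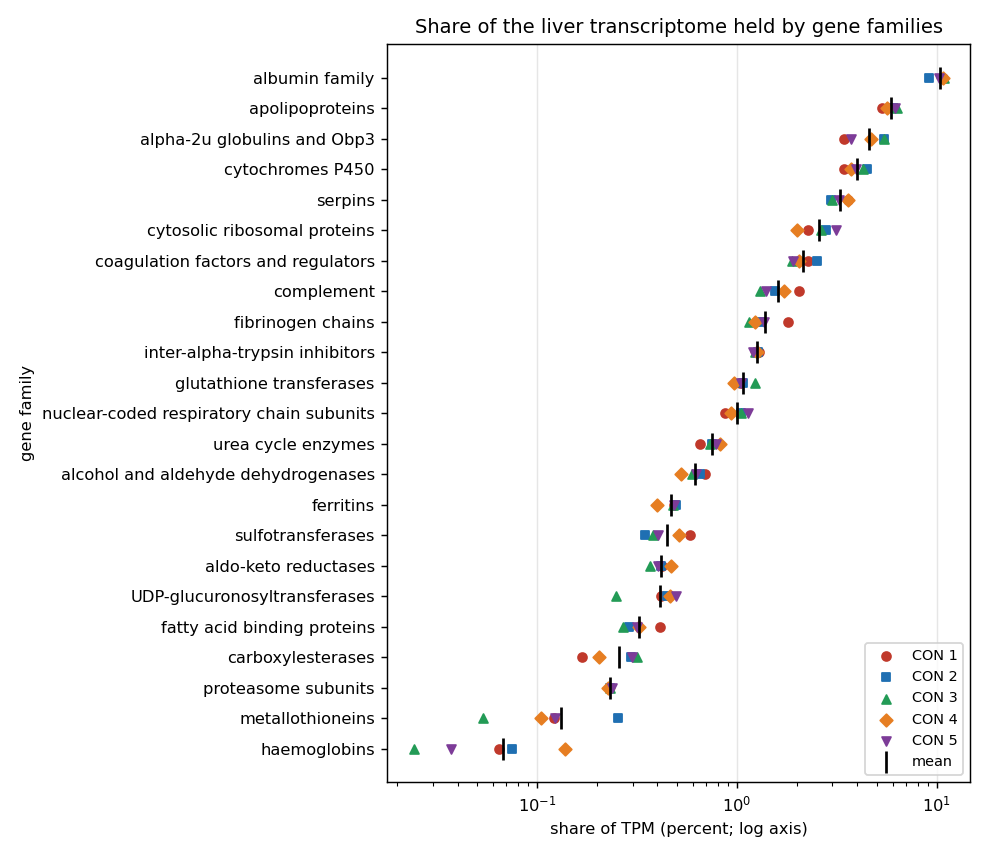
Share of TPM in percent (log axis) held by 23 gene families, with 1 symbol for each CON library and a bar at the mean. Shares span from 10.3% for the albumin family to 0.0677% for haemoglobins; proteasome subunits sit almost on 1 point, and metallothioneins and haemoglobins spread the most.

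Most genes differed little between the chow-fed livers. Over the 9813 genes with a mean count of at least 50, the median range was 1.50-fold, the quartiles were 1.31-fold and 1.85-fold, and the common biological coefficient of variation estimated by edgeR was 23.7%. The excess CV, which is what remains of the CV after the counting error is taken out, had a median of 14.9%, against a median counting error of 5.74%. A range of at least 4-fold, called variable here, was found for 312 genes, or 3.18% of those examined, and an excess CV above 50% for 394 genes, or 4.02%. Of the variable genes, 62 ranged at least 10-fold, 25 at least 20-fold and 7 at least 100-fold. Just inside the limit stood Thbs1 and Slc43a2, both at 4.01-fold, and just outside it Nsmf and Adgrf5, both at 3.99-fold. Without CON 1 the number of variable genes was 155 of the genes that then reached the mean count, whereas it lay between 249 and 275 without any other single library. CON 1 and CON 4 were together the 2 highest libraries for 108 of the 312 genes and the 2 lowest for 80. Over all 9813 genes they were the 2 highest for 2158, or 22.0%, and the 2 lowest for 2235, or 22.8%.

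**Figure D3:**
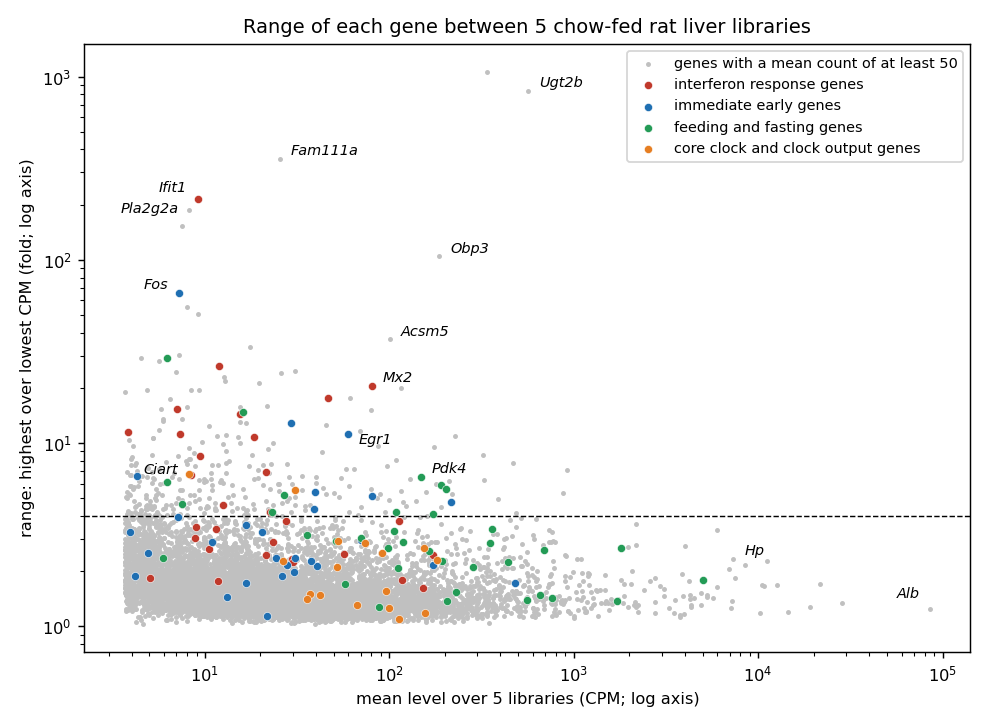
Range between the 5 CON libraries (highest over lowest CPM, log axis) against mean CPM (log axis) for 9813 genes with a mean count of at least 50, with 4 gene lists in colour and the 4-fold limit dashed. Grey points crowd below 2-fold. Above the line lie 14 of 30 interferon, 8 of 28 immediate early, 11 of 36 feeding and 2 of 17 clock genes. Of all 9813 genes, 3.18% lie there, and Alb lies at 1.24-fold.

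The widest ranges belonged to genes that were all but missing from some livers. Ugt2b, a UDP-glucuronosyltransferase, an enzyme class that conjugates steroids and drugs with glucuronic acid, had 631, 751, 0.940, 659 and 785 CPM in CON 1 to CON 5. The entry Ugt2b_1, a numbered copy of the same symbol named here after its values were seen, had 470, 345, 0.470, 500 and 367 CPM. Both were near 0 in CON 3 and high in the other 4 libraries, with ranges of 835-fold and 1064-fold. Without CON 3 the range of Ugt2b_1 was 1.45-fold. Reads of such copies may have been shared or dropped, so which gene they represent is uncertain. The family as a whole held 0.248% of TPM in CON 3 and 0.419% to 0.497% in the others.

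Fam111a, a protease linked to DNA replication and to the restriction of viruses, had 48.6 CPM in CON 2 and 78.5 CPM in CON 3, and between 0.0733 and 0.422 CPM in CON 1, CON 4 and CON 5. CON 3 held 1002 counts and CON 1 held 1, a CPM ratio of 1071 with a 95% counting interval of 192 to 42329. Pla2g2a, a secreted phospholipase A2, was present in CON 2 at 39.6 CPM and lay between 0.0704 and 0.880 CPM elsewhere, 538 counts against 1 in CON 5, with a ratio of 562 and an interval of 100.5 to 22246. Kcnj15, an inwardly rectifying potassium channel, was high in CON 1 alone, at 33.7 CPM against 0.147 to 1.65 CPM, 460 counts against 2 in CON 2, with a ratio of 229 and an interval of 63.1 to 1900. With counts under 3 set to 3, the range of Fam111a was 357-fold, and it was 216-fold without CON 1 and 221-fold without CON 3. That of Pla2g2a was 187-fold and 4.17-fold without CON 2. That of Kcnj15 was 153-fold, 51.7-fold without CON 2 and 7.41-fold without CON 1. The high libraries of these 3 genes differed.

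Obp3, a further lipocalin of the alpha-2u globulin group, had 5.06, 114, 529, 206 and 77.2 CPM in CON 1 to CON 5, lowest in CON 1 like LOC259246 and spread 105-fold. Without CON 1 its range was 6.84-fold, and without CON 3 it was 40.7-fold. Acsm5, a mitochondrial medium-chain acyl-CoA synthetase, had 416 CPM in CON 2 and 11.3 to 35.6 CPM in the other libraries. Gsta3, a glutathione transferase, was at 1.02 CPM in CON 4 and 6.31 CPM in CON 1, against 23.2 to 34.0 CPM in the rest. Marco, a scavenger receptor of macrophages, had 47.8, 12.6, 2.51, 60.2 and 5.63 CPM, high in CON 1 and CON 4. The range of Acsm5 was 36.7-fold and 3.15-fold without CON 2, and that of Gsta3 was 33.5-fold and 5.39-fold without CON 4. That of Marco fell to 10.7-fold without CON 3.

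Enzymes of lipid and aldehyde metabolism were also among the 20 widest ranges. Hrasls, a phospholipid-modifying acyltransferase, lay between 0.422 CPM in CON 5 and 23.2 CPM in CON 1, and Abhd3, a phospholipase, was between 0.627 CPM in CON 3 and 15.3 CPM in CON 1. Aox2, an aldehyde oxidase, was 29.8 CPM in CON 3 and 0.587 CPM in CON 1. Trim36, a ubiquitin ligase, was highest in CON 4 at 15.0 CPM, and Rnf186, another, in CON 5 at 14.1 CPM. Ankrd33b was 0.367 CPM in CON 1 and 4.79 to 11.0 CPM elsewhere, and Acot5, a peroxisomal acyl-CoA thioesterase, was 1.17 CPM in CON 1 and 6.38 to 26.9 CPM elsewhere. Without CON 1 the ranges of Ankrd33b and Acot5 were 2.30-fold and 4.23-fold, against 30.1-fold and 22.9-fold with it. Those of Hrasls, Abhd3, Aox2, Trim36 and Rnf186 were 24.3-fold to 55.1-fold. They came to between 7.69-fold and 30.2-fold without CON 1 or CON 5 for Hrasls, CON 3 for Abhd3, CON 1 or CON 3 for Aox2, CON 2 or CON 4 for Trim36 and CON 4 or CON 5 for Rnf186.

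Immediate early genes were mostly highest in CON 2, and Fos and Egr1 were low in CON 1 and CON 4. Of 36 listed, 28 reached a mean count of 50, and 8 of those had a range of at least 4-fold, against 3.18% of all genes examined. The median range of the 28 was 2.69-fold, against 1.50-fold over all genes. Without CON 4, 4 members were variable, without CON 2, 5, and without each other library 7 or 8. CON 2 was the highest library for 20 of the 28, as it was for 16.2% of all genes, and CON 4 was the lowest for 14, as it was for 18.4% of all genes. The mean deviation of the list from each gene's own average was -0.46, 0.73, 0.42, -0.68 and -0.01 on the log2 scale in CON 1 to CON 5.

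Fos, the AP-1 transcription factor subunit, had 0.513, 19.1, 10.7, 0.290 and 5.49 CPM in CON 1 to CON 5. It was nearly silent in CON 1 and CON 4, and its range was 65.9-fold. Egr1, a zinc finger factor induced by growth signals, had 13.3, 150, 78.8, 17.0 and 39.5 CPM, low in the same 2 libraries, with a range of 11.3-fold. Cyr61, a matrix protein also known as CCN1, had 3.89, 39.2, 50.2, 10.7 and 42.0 CPM, a range of 12.9-fold. For all 3, CON 1 and CON 4 lay below CON 2, CON 3 and CON 5 without overlap. CON 1 and CON 4 were the 2 lowest libraries for 13 of the 28 members, as they were for 22.8% of all genes. Without CON 2 the range of Fos was 37.0-fold and that of Egr1 5.90-fold, without CON 4 that of Fos was 37.2-fold, and without CON 1 that of Cyr61 was 4.66-fold.

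Other members had narrower spreads. Junb, an AP-1 subunit, had 48.1, 146, 112, 28.5 and 69.9 CPM, and Jun, its relative, 225, 376, 219, 78.9 and 180 CPM. Btg2, an antiproliferative regulator, had 24.3, 76.7, 58.5, 14.2 and 23.0 CPM, and Ier2, a nuclear regulator, 19.2, 62.9, 58.4, 14.4 and 39.5 CPM. Nr4a1, an orphan nuclear receptor, had 2.57, 8.82, 7.05, 1.67 and 1.34 CPM, lowest in CON 5. CON 2 was highest and CON 4 lowest for Junb, Jun, Btg2 and Ier2, with ranges of 4.36-fold to 5.40-fold. All 4 fell under 4-fold without CON 4, to between 2.09-fold and 3.33-fold, and Junb and Jun did so without CON 2, at 3.91-fold and 2.85-fold.

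The group was not uniform. Dusp1, a phosphatase that turns off MAP kinases, was abundant and steady at 365 to 628 CPM, a range of 1.72-fold. Zfp36, an mRNA-destabilising protein, was highest in CON 1 at 227 CPM and lowest in CON 5 at 105 CPM. Srf, the serum response factor that drives many of these genes, lay between 20.5 and 23.4 CPM and had an excess CV of 0.414%, so its spread was close to counting error. Between 4-fold and 2-fold stood Maff at 3.96-fold, Ier5 at 3.57-fold, Atf3 at 3.29-fold and Gadd45a at 3.27-fold, all 4 highest in CON 2. Of the 8 members under the count minimum, Fosl1, Fosb and Egr3 had mean counts of 1.4, 0.8 and 0.6. The trend with gene length, under which short genes were low in CON 1 and CON 4, was removed in an alternative and left 8 variable members.

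Ier2 and Btg2 carry the cAMP response element TGACGTCA, the binding sequence of CREB, in their promoters, which are shown because both genes were highest in CON 2 and lowest in CON 4. The sequences are from RefSeq on GRCr8, run 5′ to 3′ towards the transcription start, and have the element in capitals. That of Ier2 covers chr19:40399253-40399372 on the plus strand, bases -120 to -1 from the start, and that of Btg2 covers chr13:48087821-48087940 on the minus strand, bases -250 to -131.
Ier2: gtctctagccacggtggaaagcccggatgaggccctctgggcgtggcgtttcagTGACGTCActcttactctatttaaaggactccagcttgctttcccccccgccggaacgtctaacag
Btg2: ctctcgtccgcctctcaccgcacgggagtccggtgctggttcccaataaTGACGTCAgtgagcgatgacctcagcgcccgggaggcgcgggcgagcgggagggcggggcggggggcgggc
Searched on both strands over 250 bases before to 50 after the start, this element was in 6 of the 20 members with a promoter entry: Jund, Dusp1, Ppp1r15a, Maff and these 2. It was in 1.91% of all 27457 promoters. The CArG box, the binding sequence of Srf, was in 4 of the 20, namely Egr1, Zfp36, Klf6 and Srf itself, and in 1.64% of all promoters. Members with the elements included the steady Dusp1 and Srf as well as the variable Egr1, Ier2 and Btg2. A match is a description of the letters and not a site of binding or a cause.

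Feeding and fasting genes did not move as 1 block. Of 40 listed, 36 reached the mean count and 11 of those were variable, 30.6% against 3.18% of all genes examined. Their median range was 2.77-fold, against 1.50-fold over all genes. Without CON 1, 7 were variable, and without each of the others between 8 and 11. CON 1 and CON 4 were the 2 lowest libraries for 13 of the 36 and the 2 highest for 8. Over all genes these shares were 22.8% and 22.0%.

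Ppp1r3g, a glycogen-targeting subunit of protein phosphatase 1, had 0.587, 17.1, 8.39, 1.67 and 3.59 CPM in CON 1 to CON 5, lowest in CON 1 and highest in CON 2. Its relative Ppp1r3c had the opposite profile, with 163, 57.6, 69.7, 203 and 48.0 CPM, high in CON 1 and CON 4. The 2 phosphatase subunits thus had their high values in different libraries. The range of Ppp1r3g was 29.1-fold, 10.3-fold without CON 1 and 14.3-fold without CON 2. That of Ppp1r3c was 4.22-fold, 3.40-fold without CON 4 and 3.50-fold without CON 5.

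Pdk4, the kinase that shuts off pyruvate dehydrogenase during fasting, had 37.3, 244, 244, 42.1 and 171 CPM. Angptl4, a fasting-induced inhibitor of lipoprotein lipase, had 56.3, 295, 315, 69.3 and 282 CPM. Txnip, a glucose-responsive regulator of glucose uptake, had 64.0, 235, 229, 73.2 and 263 CPM. In all 3, CON 1 and CON 4 were low and did not overlap the other libraries. Igfbp1, an insulin-repressed binding protein of insulin-like growth factors, shared that order less sharply, with 65.9, 387, 285, 97.7 and 118 CPM. The range of Txnip, 4.12-fold, was 3.60-fold without CON 1 and 3.70-fold without CON 5, and that of Igfbp1, 5.87-fold, was 3.98-fold without CON 1.

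Smaller members followed. Fgf21, a hormone of fasting and protein restriction, had 3.67, 5.22, 7.76, 2.03 and 12.5 CPM, highest in CON 5, and Trib3, a stress-induced pseudokinase, had 2.71, 11.9, 12.6, 4.21 and 6.19 CPM. Gadd45g, a stress sensor, had 14.9, 41.5, 32.2, 7.98 and 36.9 CPM. Me1, malic enzyme, which supplies NADPH for fat synthesis, had 7.99 CPM in CON 1 and 23.1 to 33.5 CPM elsewhere, and its range of 4.19-fold was 1.45-fold without CON 1 and 3.20-fold without CON 2. The range of Fgf21, 6.13-fold, was 3.40-fold without CON 4 and 3.81-fold without CON 5. That of Gadd45g, 5.20-fold, was 2.79-fold without CON 4, and that of Trib3, 4.65-fold, was 2.99-fold without CON 1. Low values of Fgf21, Trib3 and Gadd45g again fell in CON 1 and CON 4.

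Enzymes of glucose and fat synthesis ranged less. Pck1, the first committed enzyme of gluconeogenesis, was abundant at 3693 to 6596 CPM, a range of 1.79-fold. G6pc, glucose-6-phosphatase, had 550, 919, 1033, 566 and 398 CPM, and Tat, tyrosine aminotransferase, had 961 CPM in CON 5 against 1733 to 2562 CPM elsewhere. Fasn, fatty acid synthase, lay between 76.8 and 159 CPM. Srebf1, the insulin-driven regulator of fat synthesis genes, had 187, 56.9, 83.5, 128 and 76.1 CPM, and Pklr, liver pyruvate kinase, had 169, 58.5, 122, 163 and 82.0 CPM; both were lowest in CON 2. Cpt1a, for fatty acid entry into mitochondria, ranged 1.43-fold.

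Many targets of the fatty acid sensor PPAR-alpha were, like Pdk4, low in CON 1 and CON 4. Of 24 members that reached the mean count, 7 were variable, 29.2% against 3.18% of all genes, and 4 were variable without CON 1. CON 1 and CON 4 were the 2 lowest libraries for 14, as they were for 22.8% of all genes. The mean deviation was -0.63, 0.39, 0.26, -0.34 and 0.31 on the log2 scale in CON 1 to CON 5. Crat, carnitine acetyltransferase, had 9.02, 136, 113, 33.2 and 107 CPM, a range of 15.1-fold that was 4.11-fold without CON 1. Acot2, a mitochondrial acyl-CoA thioesterase, had 17.4, 93.2, 69.5, 19.3 and 101 CPM, and Plin2, which coats lipid droplets, had 47.8, 173, 229, 64.0 and 184 CPM. The range of Plin2, 4.80-fold, was 3.58-fold without CON 1 and 3.85-fold without CON 3. Cyp4a1, a fatty acid omega-hydroxylase, had 250, 963, 810, 304 and 777 CPM, just under the 4-fold limit at 3.85-fold. In each of these the 2 low libraries did not overlap the other 3, whereas Cyp4a8, a relative, was low in CON 1 alone at 3.37 CPM against 15.3 to 28.9 CPM, with a range of 8.55-fold that was 1.88-fold without it.

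Among clock genes with a mean count of at least 50, the range was widest for Ciart and Noct. Of 20 in the table, 17 reached the mean count and 2 of these were variable, 11.8% against 3.18% of all genes, with a median range of 2.09-fold against 1.50-fold over all genes. Ciart, a repressor of the clock, had 10.6, 2.50, 3.68, 17.0 and 7.32 CPM, highest in CON 4 and lowest in CON 2, a range of 6.79-fold. Noct, a rhythmic phosphatase of nicotinamide dinucleotides, had 35.7, 23.5, 32.4, 52.3 and 9.50 CPM, highest in CON 4 and lowest in CON 5, a range of 5.50-fold. Without CON 4 the range of Ciart was 4.25-fold and that of Noct 3.76-fold, and without CON 5 that of Noct was 2.22-fold.

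The other clock repressors and outputs with a mean count of at least 50 had ranges under 4-fold. Nr1d1, or REV-ERB-alpha, which represses Arntl, had 79.3, 59.6, 43.1, 122 and 65.7 CPM, and Dbp, a clock-driven activator, had 226, 131, 84.6, 169 and 163 CPM. Both were lowest in CON 3. Nfil3, which opposes Dbp at shared binding sequences, had 40.3, 74.0, 66.8, 25.4 and 55.4 CPM, and its 2 lowest values were in CON 1 and CON 4. Arntl, the activator also called BMAL1, lay under the count minimum, with 0.807, 5.07, 5.09, 1.38 and 1.48 CPM. Its range, at a mean count of 37, was 6.31-fold, and it was 3.70-fold without CON 1. Npas2, the partner of Arntl, also lay under the minimum, between 0.290 and 0.662 CPM. Per1, Per2 and Per3, the period repressors, had ranges of 1.26-fold, 2.29-fold and 1.56-fold, with Per2 highest in CON 3 at 256 CPM and lowest in CON 1 at 112 CPM. Nr1d2, a relative of Nr1d1, and Tef, a relative of Dbp, ranged 1.17-fold and 1.09-fold. The remaining members, Bhlhe40, Cry1, Clock, Rora, Cry2, Hlf and Usp2, ranged between 1.30-fold and 2.50-fold.

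Ciart, the widest-ranging clock gene with a mean count of at least 50, has 3 copies of the E-box CACGTG. This is the sequence bound by the CLOCK and BMAL1 pair. The E-boxes lie in the 120 bases before the start of Ciart and are in capitals. The window is chr2:186112247-186112366 on the minus strand of GRCr8, from RefSeq.
Ciart: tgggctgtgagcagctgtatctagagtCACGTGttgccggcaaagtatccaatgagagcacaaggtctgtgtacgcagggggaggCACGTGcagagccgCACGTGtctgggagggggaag
The copies begin at bases -93, -35 and -21. Of 15 clock genes with a promoter entry, Tef and Bhlhe40 were the other 2 with this E-box, and Tef was the steadiest of the list. Of all promoters, 6.65% hold it.

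The interferon response separated CON 1 from the other 4 livers. Interferon-stimulated genes are antiviral genes switched on by type I and type III interferons. Of 30 members that reached the mean count, 14 were variable, 46.7% against 3.18% of all genes. The median range of the 30 was 3.75-fold against 1.50-fold over all genes. CON 1 was the highest library for 28, as it was for 27.1% of all genes. Without CON 1, 1 member was variable, and without each other library 13 to 15. The mean deviation was 1.53 in CON 1 and -0.48, -0.70, 0.06 and -0.41 on the log2 scale in CON 2 to CON 5.

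Mx2, an antiviral dynamin-like GTPase, had 296, 14.4, 19.0, 44.1 and 28.7 CPM in CON 1 to CON 5. Irf7, the regulator that amplifies interferon production, had 170, 11.0, 9.72, 24.8 and 16.0 CPM, a range of 17.5-fold that was 2.56-fold without CON 1. Isg15, a ubiquitin-like modifier, had 45.6, 2.79, 1.72, 6.74 and 3.03 CPM. CON 1 stood far above the rest for each, and CON 4 was second. Ifit1, which binds foreign RNA caps, had 619 counts in CON 1, 3 in CON 2 and 0 in the other libraries. With counts under 3 set to 3, its range was 215-fold. Without CON 1 the range of Mx2 was 3.05-fold in place of 20.6-fold, and that of Isg15 was 3.92-fold in place of 26.5-fold. Without CON 3 that of Isg15 was 16.3-fold.

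The pattern reached further members by smaller steps. Mx1, Usp18, Oasl and Cxcl10, a GTPase, a deconjugase of Isg15, an RNA sensor and a chemokine, had ranges of 14.4-fold, 10.7-fold, 11.2-fold and 11.5-fold with all maxima in CON 1. Without CON 1 these were 3.05-fold, 3.35-fold, 1.78-fold and 3.25-fold, and that of Oasl was 6.99-fold without CON 2 and that of Cxcl10 5.28-fold without CON 3. The signalling genes Stat2 and Irf9 ranged less: Stat2 had 292 CPM in CON 1 against 119 to 187 CPM, and Irf9 45.4 against 19.5 to 35.0 CPM. Irf1 did not share the peak in CON 1, with 13.1, 13.3, 12.5, 12.3 and 7.53 CPM. Antigen-presenting genes followed in part: RT1-S3, a class I gene, had 480, 164, 139, 247 and 186 CPM, while the class II genes RT1-Ba, RT1-Bb and RT1-Db1 were highest in CON 5. RT1 genes are close copies, so their reads may have been shared. T cell markers Cd3e, Cd3d and Cd3g had at most 9 counts in any library, and the summed level of the 22 macrophage markers was 1139 TPM in CON 1 and 1007 TPM in CON 4, against 415 to 789 TPM elsewhere; the part of these cells in the interferon values was not tested.

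Promoters of 5 interferon genes are shown because their high library was the same one. Capitals mark the core of the interferon-stimulated response element, GAAANNGAAA, on either strand. Each is the 120 bases before the start from RefSeq on GRCr8: Irf7 at chr1:205800024-205800143 (minus strand), Ifit3 at chr1:241527206-241527325 (plus strand), Gbp2 at chr2:234005607-234005726 (plus strand), Irgm at chr10:33742579-33742698 (minus strand) and Oas1a at chr12:41330346-41330465 (plus strand).
Irf7: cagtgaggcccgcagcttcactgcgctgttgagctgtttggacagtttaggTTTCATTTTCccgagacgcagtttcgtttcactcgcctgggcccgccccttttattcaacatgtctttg
Ifit3: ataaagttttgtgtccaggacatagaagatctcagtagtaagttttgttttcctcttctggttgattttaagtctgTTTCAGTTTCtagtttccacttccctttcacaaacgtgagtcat
Gbp2: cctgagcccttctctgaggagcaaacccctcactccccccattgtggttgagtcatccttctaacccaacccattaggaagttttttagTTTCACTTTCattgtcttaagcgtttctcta
Irgm: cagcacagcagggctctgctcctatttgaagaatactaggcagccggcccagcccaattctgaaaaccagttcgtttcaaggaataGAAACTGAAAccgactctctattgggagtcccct
Oas1a: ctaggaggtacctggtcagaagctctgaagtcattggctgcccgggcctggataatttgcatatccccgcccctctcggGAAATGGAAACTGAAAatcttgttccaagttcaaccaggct
In Irf7, Ifit3 and Gbp2 the element lies on the opposite strand, beginning 69, 44 and 31 bases before the start, and in Oas1a 2 copies overlap. Beside these promoters, CPM in CON 1 to CON 5 was 21.5, 2.87, 1.41, 6.31 and 3.10 for Ifit3, 22.7, 6.47, 2.66, 11.3 and 3.80 for Gbp2, and 55.3, 11.9, 7.91, 15.7 and 16.3 for Irgm. Oas1a, an oligoadenylate synthetase, had 43.6, 10.4, 15.8, 23.1 and 20.1 CPM. Without CON 1 the ranges of Ifit3, Gbp2, Irgm and Oas1a were 4.48-fold, 4.25-fold, 2.07-fold and 2.22-fold, against 15.2-fold, 8.51-fold, 6.99-fold and 4.21-fold with it. Without CON 3 those of Ifit3 and Irgm were 7.49-fold and 4.64-fold, and without CON 2 that of Oas1a was 2.77-fold. The element was in 13 of the 21 members with a promoter entry, 6 of the 9 variable ones among them, and in 3.77% of all promoters.

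**Figure D4:**
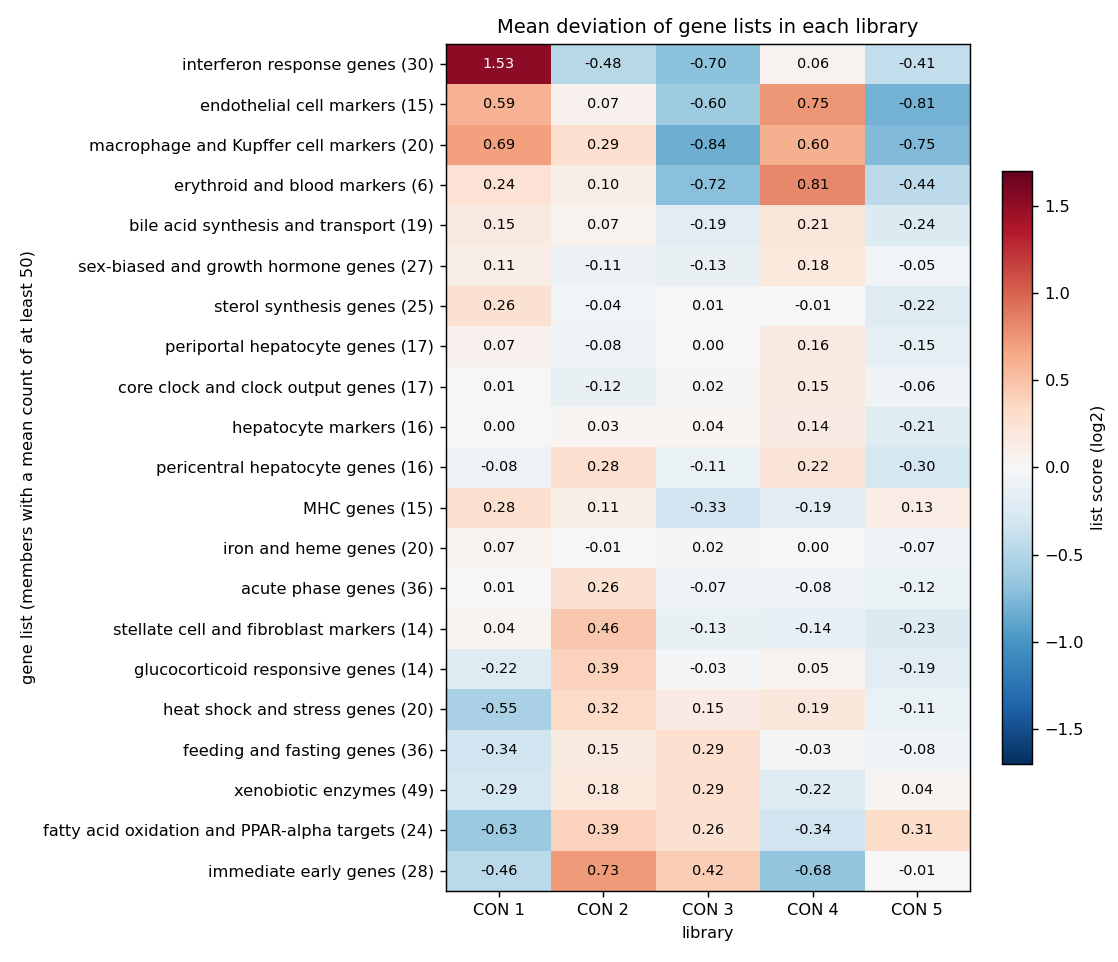
Score of each gene list in each CON library: the mean over members of log2 CPM minus that gene's mean over the 5 libraries (red higher, blue lower; number of members with a mean count of at least 50 in brackets). Interferon genes stand at 1.53 in CON 1. Macrophage and endothelial markers are at 0.59 to 0.75 in CON 1 and CON 4 and at 0.29 and 0.07 in CON 2. Immediate early genes are at -0.46 in CON 1 and at -0.68 in CON 4.

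CON 1 also stood apart for some hormone and drug responsive genes. Of 27 sex-biased and growth hormone dependent genes that reached the mean count, 7 were variable, 25.9% against 3.18% of all genes. Without CON 1, 4 were variable. CON 1 was highest for 10 of the 27 and lowest for 8, against 27.1% and 28.5% of all genes. The mean deviation of the list was 0.11, -0.11, -0.13, 0.18 and -0.05 on the log2 scale in CON 1 to CON 5. Stac3, a gene of higher level in female rodent liver, had 397, 23.7, 21.6, 120 and 19.8 CPM, and Cux2, a female-biased transcriptional repressor, had 58.8, 4.49, 3.68, 24.1 and 17.6 CPM. Both were highest in CON 1 and next highest in CON 4. Cyp2c12, the classic female P450 of rat liver, had 75.5, 16.7, 17.9, 19.7 and 45.4 CPM, and Prlr, the prolactin receptor, had 120, 39.2, 16.6, 60.3 and 56.2 CPM. The ranges of Stac3, Cux2, Cyp2c12 and Prlr were 20.02-fold, 16.0-fold, 4.52-fold and 7.25-fold, and leaving out CON 1 gave 6.02-fold, 6.55-fold, 2.71-fold and 3.63-fold, while without CON 3 that of Prlr was 3.07-fold.

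The male-specific P450s were abundant in every library. Cyp2c11 had 1891, 2956, 3321, 2448 and 2280 CPM, and Cyp2c13 had 2257, 3353, 3662, 3249 and 2222 CPM, so that CON 1 was the lowest library for the first and close to the lowest, CON 5, for the second. Igf1, the growth factor made under growth hormone, had 785, 404, 443, 703 and 441 CPM, highest in CON 1 and CON 4. Cish and Socs2, feedback inhibitors of growth hormone signalling, were highest in CON 5 at 58.1 and 47.5 CPM.

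Among 49 drug-metabolising genes with enough reads, 7 were variable, 14.3% against 3.18% of all genes, and 4 were variable without CON 1 and 4 without CON 4. CON 1 was the lowest library for 25, as it was for 28.5% of all genes. Cyp2b2, the P450 induced through the receptor CAR, went against that order, with 236 CPM in CON 1 and 20.2 to 33.0 CPM elsewhere, a range of 11.7-fold that was 1.63-fold without CON 1. Nr1i3, which is CAR itself, was lowest in CON 1 at 46.7 CPM and highest in CON 3 at 254 CPM. Cyp1a1, induced through the aryl hydrocarbon receptor, had 0.733, 8.31, 7.68, 2.68 and 8.66 CPM. Without CON 1 the range of Nr1i3 was 2.58-fold in place of 5.43-fold, and that of Cyp1a1 3.23-fold in place of 11.8-fold. Cyp2b2 belongs to a family of close copies, so its reads are uncertain.

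Bile acid and cholesterol genes ranged moderately. Cyp7a1, whose enzyme limits the rate of bile acid synthesis, had 367, 176, 96.9, 189 and 61.7 CPM, and Cyp8b1, which sets the cholic acid share, had 589, 265, 199, 732 and 149 CPM. Both were highest in CON 1 or CON 4 and lowest in CON 5, with ranges of 5.95-fold and 4.92-fold, which were 3.79-fold and 3.69-fold without CON 5. Abcc3, a basolateral bile acid exporter, had the reverse, 21.7 CPM in CON 5 and 5.08 CPM in CON 4. These were the 3 variable genes among 19, 15.8% against 3.18% of all genes. With CON 1 left out 2 were variable, with CON 4 left out 1 and with CON 5 left out 0. The range of Cyp7a1 was 3.06-fold without CON 1. None of the 25 sterol synthesis genes was variable, against 3.18% of all genes, and their median range was 1.62-fold, against 1.50-fold. The widest range was that of Msmo1, a sterol methyl oxidase, at 2.68-fold. CON 1 was highest for 14 of the 25, as it was for 27.1% of all genes. Hmgcs1, the synthase that begins the pathway, had 595 CPM in CON 1 and 268 to 384 CPM elsewhere.

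The metallothioneins and some acute phase genes were highest in CON 2. Mt1 and Mt2A, the metallothioneins, had 377 and 180 CPM in CON 2, against 84.3 to 170 and 33.9 to 81.8 CPM elsewhere. Lcn2, an iron-siderophore trap of the acute phase, had 2.27, 14.6, 3.92, 2.54 and 2.81 CPM. Kng1, kininogen, had 4644 CPM in CON 2 and 1289 to 1969 CPM elsewhere, and Orm1, orosomucoid, had 887 CPM against 232 to 519 CPM. These had CON 2 highest together with Hp. Without CON 2 the ranges of Mt1, Mt2A, Lcn2, Kng1 and Orm1 were 2.01-fold, 2.41-fold, 1.72-fold, 1.53-fold and 2.24-fold, against 4.47-fold, 5.30-fold, 6.44-fold, 3.60-fold and 3.82-fold with it. Without CON 3 those of Mt1 and Mt2A were 2.44-fold and 2.55-fold.

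The acute phase list as a whole was not raised alike. Of 36 members, 4 were variable, 11.1% against 3.18% of all genes, and 1 was variable without CON 2 and 2 without CON 3. CON 2 was highest for 13 and CON 1 for another 13, whereas over all genes these were highest for 16.2% and 27.1%. A2m, the rat acute phase protease inhibitor, was highest in CON 1 at 56.6 CPM and lowest in CON 5 at 11.3 CPM, a range of 5.03-fold that was 3.17-fold without CON 1 and 3.92-fold without CON 5. Among 20 heat shock genes, 6 were variable, 30% against 3.18% of all genes, and 4 without CON 1, CON 2 or CON 3. CON 1 was lowest for 12, as it was for 28.5% of all genes. The highest library was CON 3 for 7, CON 4 for 7 and CON 2 for 4, against 20.5%, 18.1% and 16.2% of all genes. Hspb1, a small heat shock protein, had 3.15, 32.1, 77.5, 10.9 and 29.8 CPM, and Hspa1a, the inducible HSP70, had 2.64, 16.4, 11.4, 34.4 and 12.6 CPM. Hspa1b, a near-identical copy of Hspa1a, had 0.367 CPM in CON 1 and 4.62 to 7.18 CPM elsewhere, and reads of the pair cannot be told apart with certainty. The ranges of Hspb1, Hspa1a and Hspa1b were 24.6-fold, 13.02-fold and 19.6-fold, and without CON 1 they were 7.06-fold, 3.01-fold and 1.56-fold. Without CON 3 that of Hspb1 was 10.2-fold, and without CON 4 that of Hspa1a was 6.21-fold. Hamp, hepcidin, the iron hormone, had 313, 151, 310, 111 and 251 CPM, a range of 2.82-fold. No gene of the 20 iron and heme genes was variable, against 3.18% of all genes. Their median range was 1.40-fold, against 1.50-fold over all genes.

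Markers of sinusoidal cells were mostly highest in CON 1 and CON 4. In bulk tissue, fewer cells of a type and less RNA per cell cannot be told apart. Of 20 macrophage and Kupffer cell markers that reached the mean count, 6 were variable, 30% against 3.18% of all genes. Without CON 5, 4 were variable. CON 1 and CON 4 were the 2 highest libraries for 15 of the 20. The summed level of all 22 listed was 1139, 789, 415, 1007 and 436 TPM in CON 1 to CON 5. Of 15 endothelial markers, 6 were variable, 40% against 3.18% of all genes, or 4 without CON 4 and 3 without CON 5. CON 1 and CON 4 were the 2 highest for 11 of the 15, and summed levels were 282, 213, 135, 312 and 122 TPM. Over all genes the pair were the 2 highest for 22.0%.

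Among the single markers, Clec4f, a lectin of Kupffer cells, had 199, 95.9, 67.6, 190 and 50.5 CPM, Fcgr2b, an Fc receptor of Kupffer and sinusoidal cells, had 58.2, 27.0, 14.8, 57.4 and 10.6 CPM, and Cybb, the phagocyte oxidase, had 18.3, 7.13, 1.96, 10.9 and 2.74 CPM. Stab2, a sinusoidal scavenger receptor, had 25.1, 18.6, 8.78, 51.3 and 7.46 CPM. Kdr, the main VEGF receptor, had 78.1, 36.5, 19.3, 78.5 and 14.9 CPM, and Lyve1, a hyaluronan receptor, had 63.0, 43.5, 18.9, 62.4 and 11.8 CPM. In all 6, CON 3 and CON 5 were the 2 lowest libraries, and CON 1 and CON 4 the 2 highest. The ranges were 3.93-fold for Fcgr2b and 3.34-fold for Lyve1 without CON 5, 3.36-fold for Stab2 without CON 4 and 5.6-fold for Cybb without CON 1, against 5.51-fold, 5.36-fold, 6.88-fold and 9.36-fold with all libraries. The part of these cells in the low immediate early and PPAR-alpha target values of CON 1 and CON 4 was not tested.

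Col1a1, the fibroblast collagen, did not follow that order and was highest in CON 2 at 30.5 CPM and between 1.57 and 7.63 CPM elsewhere, a range of 19.5-fold that was 4.87-fold without CON 2 and 10.8-fold without CON 3. Of the cholangiocyte markers, Epcam and Anxa4 ranged 1.45-fold and 1.40-fold. Hba1 and Hba2, alpha-globin genes that are near copies, had 266 and 106 CPM in CON 4 and 41.7 and 20.9 CPM in CON 3. Their ranges of 6.38-fold and 5.08-fold were 3.73-fold and 3.07-fold without CON 4 and 3.97-fold for both without CON 3. None of 17 periportal hepatocyte genes was variable, against 3.18% of all genes, and their median range was 1.59-fold, against 1.50-fold. Of 16 pericentral genes Cyp7a1 and Tbx3, a transcription factor, were variable, 12.5% against 3.18% of all genes. The median range of the 16 was 2.16-fold against 1.50-fold over all genes, and none was variable without CON 1. Of 22 cell cycle genes, 3 reached the mean count, and Ccnd1, cyclin D1, was high in CON 1 and CON 4 at 18.3 and 21.5 CPM against 3.90 to 5.80 CPM.

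**Figure D5:**
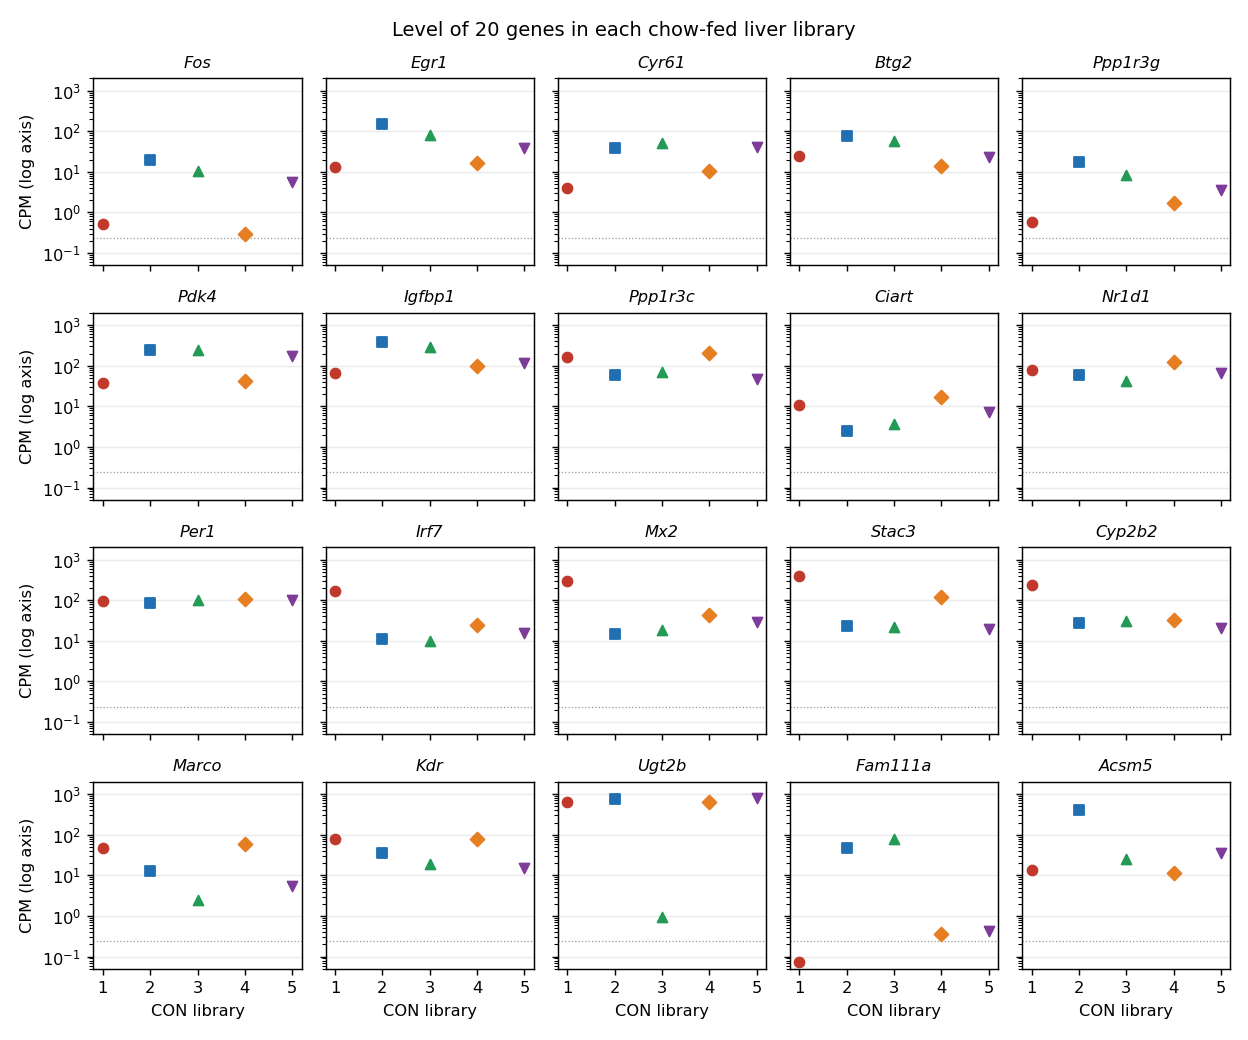
CPM (log axis) of 20 genes in each CON library, with the level of 3 counts dotted. Fos, Egr1, Cyr61 and Pdk4 are low in CON 1 and CON 4, Marco and Kdr are high there, Irf7, Mx2, Stac3 and Cyp2b2 peak in CON 1, Ugt2b is near 0 in CON 3, Fam111a is present in CON 2 and CON 3, Acsm5 peaks in CON 2 and Per1 is level.

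At the other end, some genes hardly differed at all. Among the 1748 genes with a mean count of at least 1000, small CVs were found for Hspa9, the mitochondrial HSP70, at 1.54%, Gcsh, a subunit of the glycine cleavage system, at 2.39%, Dpyd, the first enzyme of pyrimidine breakdown, at 2.45%, and Mpp6, a scaffold protein, at 2.56%. The counting error of these genes alone gives CVs of 1.46% to 2.43%. Their ranges were 1.04-fold to 1.07-fold, so their spread was hardly larger than counting error.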

How the data were processed

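The authors deposited 1 table of 21576 genes with read counts, all whole numbers, and FPKM values, as its header names them. Processing notes of the submitters mention edgeR but neither its role nor its version. Strand use, aligner, counter, build and annotation: not given in the sources used here. The deposited FPKM values equalled count divided by gene length and library total within 0.01% for 100% of values above 0. Only the 5 CON libraries, grouped by title, were used. Factors (TMM) and the biological coefficient of variation came from edgeR 4.0.16 in R 4.3.3; the remainder was computed with Python 3.11.15, pandas 2.3.3 and numpy 2.4.6. Ranges were ranked for genes with a mean count of at least 50, which held at least 99.4% of each library's counts. The 4-fold call, not the ranking, was tried on simulated counts. Genes varied independently there with a common CV, so variation shared between genes was not covered. There is no comparison between groups and so no p-value.

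Named genes are the 20 of highest TPM, the 10 with the most counts, members of the feeding, clock and immediate early lists, up to 3 members of every other list with the largest range, the 20 largest ranges without a provisional symbol, the 5 smallest CVs with a mean count of at least 1000 and the leading members of each family. Some genes that this rule picks are not reported here. List members named beyond that rule were chosen after their values were seen. The lists (617 entries, 572 genes, 552 in the table, 429 with the mean count, 86 variable) and families were chosen with earlier results of these data known, and the pattern for the UDP-glucuronosyltransferase family was widened after values were seen. Promoters came from a RefSeq table of GRCr8 with 27457 genes; 415 of the 552 list genes matched. Intervals are exact binomial ones on 2 counts and cover counting error alone. Alternatives were DESeq2 1.42.0 size factors, library totals, other count minimums, leaving out each library and, chosen after seeing the data, removing the trend with gene length and showing shares by counts for the most abundant genes.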

Additional observations from a re-analysis of the deposited data

Results flagged for a closer look

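For 14 of the genes named, the highest or lowest log2 CPM lay so far from the next library that its gap, as a share of the gene's whole range, exceeded 0.71, Dixon's 95% limit for 5 values. Chance flags about 1 in 20 groups, and 178 genes were examined. Many of the 178 were named for their wide range or after their values were seen, so that rate does not hold for them. CON 1 stood apart as the highest library for Ifit1 (gap 0.834 of the range), Oasl (0.767) and Cyp2b2 (0.801), and as the lowest for Ankrd33b (0.734), Me1 (0.741), Hspa1b (0.839) and Ass1 (0.875), the urea cycle enzyme. CON 2 stood apart as the highest for Lcn2 (0.712), for Krt7, a keratin of epithelia (0.831), and for Myh8, a skeletal muscle myosin (0.977). CON 3 was the highest for Apoc3 (0.765) and the lowest for Ugt2b (0.967) and Ugt2b_1 (0.944). CON 5 was the lowest for Irf1 (0.855).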

How the results depend on the processing

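No paired analysis was possible because a single group was described and no groups were compared. The count minimum moved the counts of variable genes most: with a minimum of 10, 973 genes had a range of at least 4-fold and 947 an excess CV above 50%, and with a minimum of 200 these were 128 and 161, and 56 list members were variable. Leaving out each library gave 155 to 275 genes by range, 260 to 446 by excess CV and 53 to 75 list members, with each lowest value reached without CON 1. Size factors of DESeq2, library totals and removal of the length trend kept all 3 counts within 1.5 times. They also kept the ranges of the named genes within 1.5 times in all 534 cases, whereas leaving out 1 library moved 129 of 890 by more than 1.5 times. The share of variable genes highest in CON 1 was 34.6% and lay between 26.6% and 45.8% in the alternatives, among which it could not be computed without CON 1. Without Alb the top 100 genes held 43.3% of counts. By counts in place of TPM the families held 36.3% and the 20 genes of highest TPM held 26.1%. With 5 libraries and no stated time or feeding state, the spread has few points, and genes under a mean count of 50 carry a counting CV above about 14%.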

Other observations

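Some transcripts were almost missing from at least 1 liver and present in another, with counts of at most 3 in a library and of at least 100 in another; 11 genes met this limit, which was set after the values were seen. In CON 2 they included Msln, Muc16 and Lrrn4, genes known from the mesothelium that covers the liver, with 176, 146 and 147 counts, against at most 15, 13 and 6 in any other library. Krt7, a keratin of mesothelium and bile duct, had 25 counts in CON 2, 1 in CON 1 and 0 in the others. Myh8, a skeletal muscle myosin, had 198 counts in CON 2 and 0 in the 4 others. With counts under 3 set to 3, its range was 69.0-fold. Pla2g2a and Col1a1 also peaked in CON 2, and Hp, Kng1 and Mt1 were highest in the same library; the part of these cells in those values was not tested. Lox, a collagen cross-linking enzyme, had 172 counts in CON 4 and 1 to 36 elsewhere, and Cxcl13, a chemokine that attracts B cells, had 121 in CON 1 and 1 to 41 elsewhere.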
